A study of Rattus norvegicus with 15 samples.

Results

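Cdh2, the gene for N-cadherin, was followed through enamel formation in the rat incisor. It was found on the array as the probes whose transcript name is a RefSeq transcript of rat Cdh2. This gave 1 probe, A_44_P349475, designed against the transcript NM_031333 and printed as 10 spots on every array. Cdh2 was 1 of the 38 RefSeq genes that could be named on the array, of which 37 were tested.

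Total RNA was taken from enamel organs of the lower incisor of 4-week-old Wistar Hannover rats, with no treatment or genetic change given. This epithelium forms the enamel, and it was sampled at 3 places along the tooth. The cervical loop is the growing end that holds the progenitors of ameloblasts, the secretory stage is where ameloblasts lay down enamel matrix, and the maturation stage is where that matrix is removed and mineral added. Each stage had 5 arrays, 15 in all, and the series design names 5 rats without tying a replicate number to a rat, so that p-values measure the spread between these samples.

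N-cadherin is a classical cadherin, a membrane protein that joins cells by binding, in a calcium-dependent way, to the same protein on a neighbouring cell. Its tail inside the cell binds beta-catenin, which is linked through alpha-catenin to the actin cytoskeleton. It is best known from neural tissue, heart muscle and mesenchyme, whereas most epithelia rely on E-cadherin. In rodent incisors a change from E-cadherin toward N-cadherin has been described as ameloblasts differentiate.

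Stages were taken from the tissue label, because on 8 arrays the title and the tissue label disagree, with secretory and maturation exchanged. Of 34 genes listed as cell type markers, only Map2 was on the array, so the labelled stages could not be checked against enamel genes. The arrays were read in 5 scans on 2 days. All cervical loop arrays were scanned on the second day and all others on the first, so in comparisons with the cervical loop the stage cannot be told apart from the day of scanning. Between 67.4% and 78.9% of an array's spots were well above background and 0 were saturated. The number of arrays limits the precision.

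The Cdh2 probe was bright and evenly read at every stage. All 150 of its spots were well above background and none was left out. The coefficient of variation among the 10 spots of an array was between 2.54% and 11.8%. The median Cdh2 signal was 32.7 to 66.8 times the local background on cervical loop arrays, 115 to 186 times on secretory arrays and 291 to 333 times on maturation arrays. The local background lay between 20.9 and 25.95 intensity units on cervical loop arrays, between 21.05 and 23.15 on secretory arrays and between 19.9 and 22.65 on maturation arrays. It was above all secretory arrays on 4 of 5 cervical loop arrays and below all of them on 4 of 5 maturation arrays. Those 4 maturation arrays were of a scan that held no other stage. In the only scan that held secretory and maturation arrays, maturation replicate 5 had 22.65, within the 22.5 to 23.15 of secretory replicates 1 to 3. Differences in background between stages can therefore not be told apart from those between scans. The SD among spots of an array, pooled over arrays, was 0.11 on the log2 scale, against 0.32 between arrays of a stage. Most of the error in a stage mean therefore lay between samples and not between spots.

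**Figure D1:**
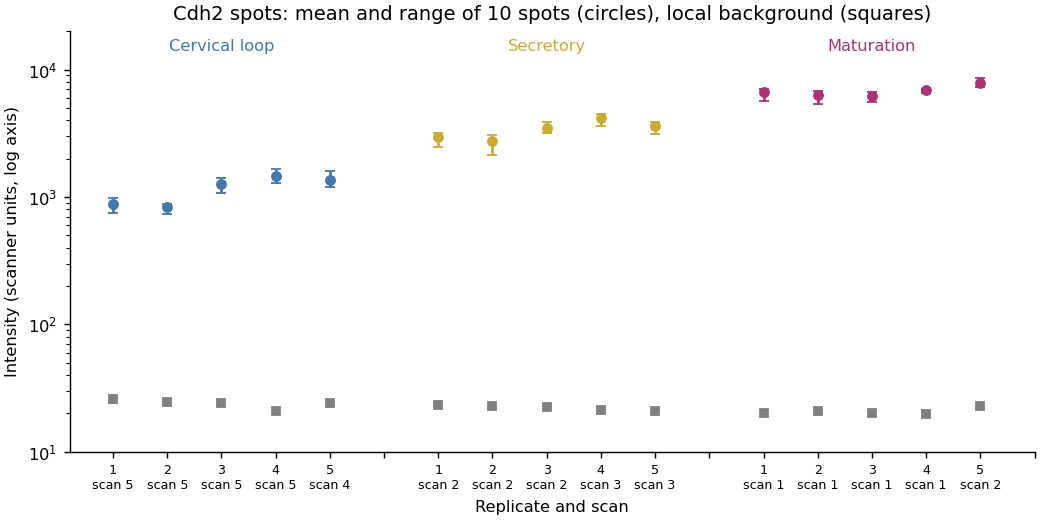
Processed Cdh2 intensity (log axis, scanner units) on each array, by stage, replicate and scan. Circles are the mean of 10 spots with bars from the lowest to the highest spot, and squares are the local background, which lies between 19.9 and 25.95 while the Cdh2 signal climbs from stage to stage.

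Before any scaling, the processed Cdh2 intensity was 876, 837, 1255, 1463 and 1370 in cervical loop replicates 1 to 5. It was 2951, 2751, 3485, 4137 and 3611 in the 5 secretory samples. In the maturation samples it was 6619, 6302, 6199, 6922 and 7912. Every secretory array was brighter than every cervical loop array, and every maturation array was brighter than every secretory array. The stage means were 1160 ± 287, 3387 ± 552 and 6791 ± 688 (SD, n = 5 each), which is a 2.92-fold step followed by a 2.00-fold step without scaling.

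Arrays were then made comparable by subtracting, on the log2 scale, each array's 75th percentile of signal. On this normalized log2 scale Cdh2 stood at 0.90, 1.01, 0.93, 1.89 and 1.21 in cervical loop replicates 1 to 5. Replicate 4 was the highest of them, and its gap to the next sample was 0.69 of the stage's range, under the critical value of 0.71 for an outlier among 5. Without it the cervical loop mean was 1.01 ± 0.14 (SD) instead of 1.19 ± 0.41 (SD, n = 5). On that array the 75th percentile, 395 intensity units, was the lowest of the stage, beside 415 to 658 on the others. Before scaling, the Cdh2 signal of replicate 4 was 1463, close to the 1370 of replicate 5, where the percentile was 593. Since the percentile is subtracted, most of the distance between replicates 4 and 5 on the normalized scale lay in the percentile and not in the Cdh2 signal. Replicates 1 and 2 had unscaled Cdh2 signals of 876 and 837 and percentiles of 468 and 415. Most of the distance from replicate 4 to these lay in the Cdh2 signal. Features that were higher in the secretory stage and complete on all 5 arrays numbered 6129. Replicate 4 was the highest cervical loop array for 19.8% of them, within the range of 11.7% to 29.6% over the 5 arrays. These features were picked by their calls in the same data, and the share does not say why Cdh2 was highest there.

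The secretory samples stood at 2.80, 2.83, 3.56, 3.49 and 3.32, with a mean of 3.20 ± 0.36 (SD, n = 5). Replicates 1 and 2 were low and the other three lay together above them. The maturation samples stood at 3.87, 3.67, 3.73, 3.78 and 3.79, with a mean of 3.77 ± 0.07 (SD, n = 5), the narrowest spread of the 3 stages. The order was cervical loop, secretory, maturation, and no array of one stage overlapped with another. The gap between the highest cervical loop and the lowest secretory array was 0.91, and that between the highest secretory and the lowest maturation array was 0.12. Of all 28863 features tested, 14.8% were likewise higher in secretory than in cervical loop without overlap, and 20.1% in maturation than in secretory.

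**Figure D2:**
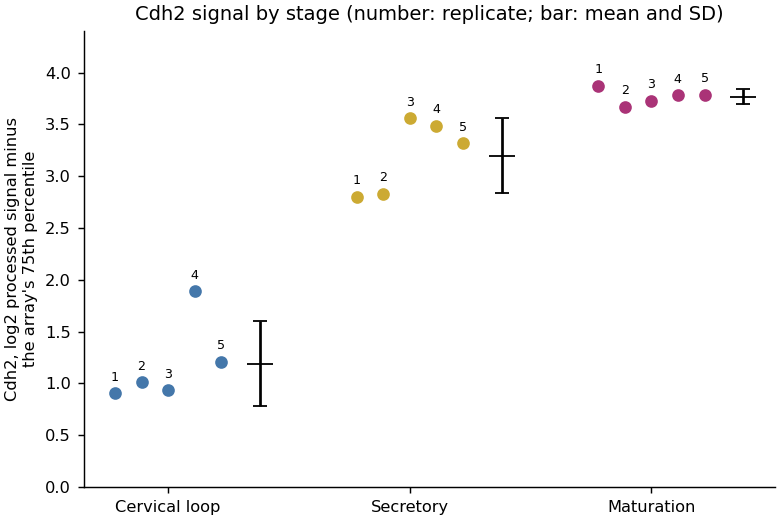
Normalized log2 signal of Cdh2 (processed signal scaled by the 75th percentile of the array) by stage. Points are arrays with their replicate number and bars are the mean and SD of 5 arrays; the wide gap of 0.91 separates cervical loop from secretory arrays, and one of 0.12 separates secretory from maturation arrays.

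The first comparison asked how Cdh2 differs between the growing end and the secretory stage. Cdh2 rose by 2.01 on the log2 scale (SE 0.19, 95% confidence interval 1.60 to 2.42), which is 4.03-fold (interval 3.03 to 5.36). The increase passed limma's test over all features (adjusted p = 5.27e-07), and an exact two-sided permutation test of the 10 arrays gave p = 0.007937, the smallest that 5 against 5 allows. In all, 58.1% of features passed the test between these stages, 21.4% as increases and 36.7% as decreases. Those that rose at least as far as Cdh2 made up 2.91% of the features, 841 of them. The median difference of all features was -0.19. As bulk tissue was measured, more Cdh2 RNA per cell and more cells that make it cannot be told apart, here and in the comparisons that follow.

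The second comparison asked whether Cdh2 changes again as ameloblasts pass from secretion to maturation. Cdh2 rose by 0.57 (SE 0.19, 95% confidence interval 0.16 to 0.98), or 1.48-fold (interval 1.12 to 1.97; limma, adjusted p = 0.0192). The exact two-sided permutation p was again 0.007937. That test treats the arrays as unpaired, although same-numbered arrays of these stages were taken as pairs. Of all features, 59.5% passed the test here, 25.1% upward and 34.4% downward, and 19.1% rose at least as far as Cdh2, so that an increase of this size was common on these arrays. The median difference of all features was -0.12.

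The size and the call of this second increase depended on the scaling and on the samples. With quantile normalization between arrays the difference, 0.35, was short of the threshold (limma, adjusted p = 0.140), and 2 of the 5 maturation arrays then lay above all secretory arrays. Without secretory replicate 1 it was 0.47 (limma, adjusted p = 0.0547), and without secretory replicate 2 it was 0.48 (limma, adjusted p = 0.0551); these were the pair of low secretory arrays. Only 1 scan held both stages, with maturation replicate 5 at 3.79 and secretory replicates 1 to 3 at 2.80, 2.83 and 3.56. The maturation array was above all 3 secretory arrays there. With scan as a block the difference was 0.72 (limma, adjusted p = 0.0848), and within that scan alone it was 0.72 (limma, adjusted p = 0.256), a fit that takes the spread of the single maturation sample from the 3 secretory ones. Over all features, same-numbered arrays of these stages deviated together. With replicate number and scan both as blocks the Cdh2 difference was 0.87 (limma, adjusted p = 0.362). With stages taken from the titles, both groups hold arrays of both tissue labels. The Cdh2 difference was then -0.14 (limma, adjusted p = 0.705), and 0 features passed in either direction. Title and tissue label agree on replicate 1 of both stages, where Cdh2 stood at 3.87 in maturation and 2.80 in secretory. For the other replicates the direction rests on the tissue label.

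The third comparison joined both ends of the sequence. From cervical loop to maturation, Cdh2 rose by 2.58 (SE 0.19, 95% confidence interval 2.17 to 2.99), or 5.98-fold (interval 4.49 to 7.95; limma, adjusted p = 2.97e-08). The unscaled intensities gave 5.85-fold, so the scaling moved the single steps (4.03-fold and 1.48-fold, beside 2.92-fold and 2.00-fold unscaled) more than the whole rise. The exact two-sided permutation p was 0.007937. In this comparison 63.2% of features passed the test, of which increases made up 20.6% of all features and decreases 42.7%, and 1.56% rose at least as far as Cdh2, beside a median difference of -0.28. Maturation arrays lay above cervical loop arrays without overlap for 14.3% of features.

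The steps were then compared with each other. The second step of Cdh2 was smaller than the first, with a difference of -1.44 on the log2 scale (SE 0.34, 95% confidence interval -2.15 to -0.73; limma, adjusted p = 0.00191). Both steps use the same secretory arrays, and the contrast's error takes this into account. The size of the contrast depends on the scaling: the steps were 4.03-fold and 1.48-fold with it, and 2.92-fold and 2.00-fold without. The unscaled contrast was not tested. Only the first step cannot be told apart from the day of scanning. Of all features, 54.8% had steps that differed by the test, 30.2% with a higher and 24.5% with a lower second step, and 12.6% differed at least as far as Cdh2 in this direction. Features that rose at both steps were few, 690 or 2.39% of those tested, and those that also rose less at the second step were 43, or 0.149%.

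The differences were alike at each of the 10 places where the probe was printed. Over these places the difference between secretory and cervical loop ran from 1.90 to 2.12, and that between maturation and secretory from 0.51 to 0.64. Cervical loop and secretory arrays stood apart at 10 of 10 places, and secretory and maturation arrays at 9 of 10. The spots share one probe and one RNA per array and are no replicates of a stage.

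**Figure D3:**
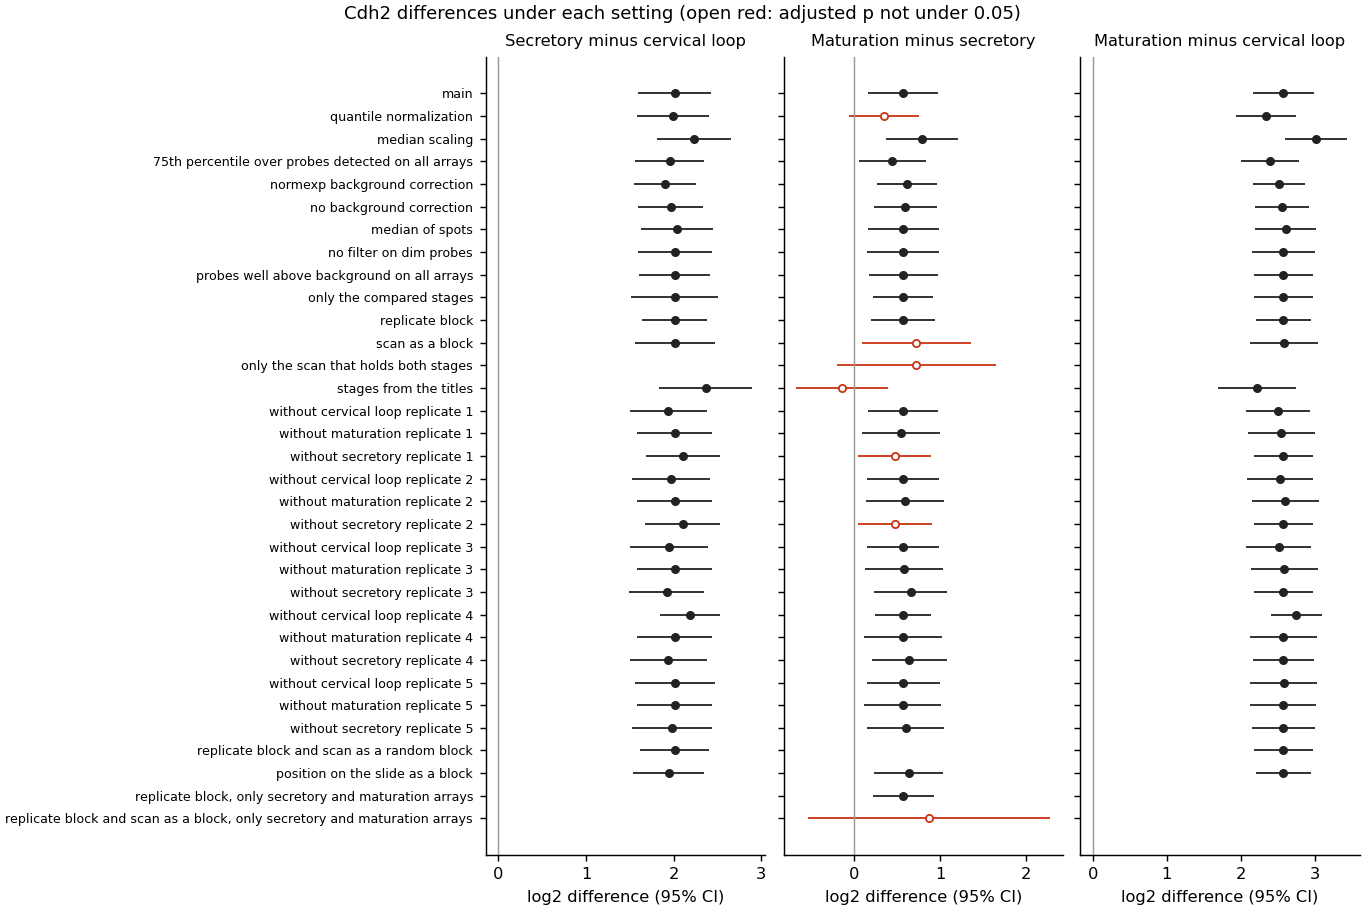
Difference of Cdh2 on the log2 scale, with its 95% confidence interval, for the 3 stage comparisons (panels) under each processing choice (lines). Filled points passed the threshold and open red points did not; all intervals lie above 0 in both panels that involve the cervical loop, while the middle one reaches from -0.14 with stages from the titles to 0.87 with replicate and scan as blocks.

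Few genes that work with N-cadherin were named on this array. Of 80 genes listed for cell junctions and their partners, 8 were present, Cdh2 among them, and all 8 were tested. Cdh2 was the only one of 9 listed cadherins, so E-cadherin was not analysed here. None of 13 catenin and plaque genes, 10 desmosome genes, 11 tight and gap junction genes or 8 factors of the cadherin switch could be named. The other 7 genes were of the cytoskeleton, of signalling at the membrane and of synapses. From cervical loop to secretory stage 1 of these 7 rose and 5 fell, beside 21.4% and 36.7% of all features, and the median was -1.14 beside the 2.01 of Cdh2 and the -0.19 of all features. From secretory to maturation 4 rose and 0 fell, beside 25.1% and 34.4% of all features, with a median of 0.45 against -0.12 (1 fell with normexp background correction and 1 without background correction). From cervical loop to maturation 3 rose and 4 fell, beside 20.6% and 42.7% of all features, with a median of -0.88 against -0.28. With so few genes these counts describe the members and no more.

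Actb encodes beta-actin, a subunit of the filaments to which cadherin junctions are anchored. Its normalized log2 signal lay between 5.87 and 6.51 in the cervical loop, between 4.67 and 5.29 in the secretory stage and between 5.11 and 5.53 in maturation. It fell by 1.19 between cervical loop and secretory stage (limma, adjusted p = 7.63e-06), while Cdh2 rose. Its later difference of 0.31 did not pass the threshold (limma, adjusted p = 0.0835), although it did with median scaling, with normexp correction and without background correction. Actb and Cdh2 thus moved apart at the first step, without overlap between these stages for either gene.

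Pld1 encodes phospholipase D1, which makes the lipid messenger phosphatidic acid and acts in membrane traffic and actin rearrangement. It was the only other listed gene that rose at the first step, by 1.61 (limma, adjusted p = 4.98e-06). It rose by 1.48 at the second (limma, adjusted p = 1.13e-05). Its steps differed by -0.14 (limma, adjusted p = 0.751), where those of Cdh2 differed by -1.44. The Pld1 signal lay between -0.55 and 0.31 in cervical loop, between 0.98 and 2.07 in secretory and between 2.91 and 3.06 in maturation arrays, again without overlap. Cervical loop replicate 4, the highest for Cdh2, was the lowest for Pld1, at -0.55.

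Ptk2b encodes a tyrosine kinase of the focal adhesion kinase family. Between cervical loop and secretory stage it differed by -0.26, a difference that did not pass the threshold (limma, adjusted p = 0.438) and was 0.06 with normexp correction. It rose by 3.14 from secretory to maturation (limma, adjusted p = 1.86e-07), or by 1.96 with normexp correction, at the step where the Cdh2 difference was the smaller one. Fgf2 encodes a fibroblast growth factor, a ligand of receptors that are known to associate with N-cadherin. It fell by 1.76 at the first step (limma, adjusted p = 2.65e-07), a difference of -0.86 without background correction and of -0.40 with normexp correction (limma, adjusted p = 0.0114). Its difference at the second step was 0.45 (limma, adjusted p = 0.0226), 0.33 and short of the threshold with the percentile taken over probes detected on all arrays, 0.00 without background correction and -0.14 with normexp correction.

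Dlg4, Map2 and Gdnf are best known from neurons, where N-cadherin also joins synapses. Dlg4 encodes a scaffold protein of the postsynaptic density. It fell by 1.14 at the first step (limma, adjusted p = 2.94e-06), a difference of -0.59 without background correction and of -0.27 with normexp correction (limma, adjusted p = 0.0364). Its second difference of 0.08 did not pass the threshold and turned negative under 3 of the 5 other scalings and background corrections. Map2, which encodes a microtubule-associated protein of dendrites, was well above background on 5 cervical loop arrays, 0 secretory and 0 maturation arrays. On the background-subtracted signal it was at least 3.63-fold lower in secretory and at least 5.69-fold lower in maturation than the cervical loop mean. These bounds set the mean of the brighter stage against the lowest signal well above background on each array. Without background correction Map2 differed from the cervical loop by -0.75 in secretory and -1.20 in maturation on the log2 scale, short of both bounds. With normexp correction its first difference, -0.24, was short of the threshold (limma, adjusted p = 0.157). As Map2 is also the only listed marker of nerve that the array names, the part of nerve RNA in the Cdh2 values was not tested. Gdnf, which encodes a neurotrophic growth factor, differed by -0.83 at the first step (limma, adjusted p = 0.0486), was well above background on 2 of 5 secretory arrays, and was 0.20 with normexp correction, of opposite sign. At the second step it was higher on all 5 maturation arrays than on any secretory array; the fitted difference was 3.93 (limma, adjusted p = 1.40e-07), 1.91 without background correction and 1.09 with normexp correction, and its size is uncertain because most secretory arrays were not well above background.

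Beside the other named genes of the array, Cdh2 held the first place at the first step. Of the 37 RefSeq genes tested, 9 rose and 19 fell from cervical loop to secretory stage, with a median of -0.44. Cdh2 had the highest difference of the 37, and it kept this rank under each of the 5 other scalings and background corrections. From secretory to maturation 24 genes rose and 2 fell, with a median of 0.45 (1 fell with median scaling), and Cdh2 ranked 15th, or 21st with quantile normalization. From cervical loop to maturation 17 rose and 10 fell, and Cdh2 ranked 5th; with median scaling 21 rose and 5 fell, so that 80.8% instead of 63.0% of the calls were increases. These genes were placed on a non-coding RNA array and need not stand for other genes.

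Over all features the balance of calls also moved with the scaling, while the Cdh2 increases at the first step and over both steps did not lose their call. Increases were 36.8% of the calls between secretory and cervical loop, 46.0% with quantile normalization, 53.8% with median scaling and 56.9% with normexp correction. Between maturation and secretory they were 42.2%, and 57.8% with median scaling and 30.8% with normexp correction. From cervical loop to maturation they were 32.5%, with 45.7% and 61.8% under quantile normalization and median scaling. Median scaling moved the median of all features from -0.19 to 0.03 at the first step and from -0.12 to 0.10 at the second. Relative to the median of all features, Cdh2 differed by 2.20 at the first step, by 2.07 with quantile normalization and by 1.82 with normexp correction. At the second step the same measure stood at 0.69, at 0.35 under quantile normalization and at 0.86 under normexp; median scaling cannot change it, since it shifts all features of an array alike.

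In the comparison of steps, Cdh2 stood at the bottom of the named genes. Its contrast of -1.44 was the lowest of 37, beside a median of 0.99, and 21 genes had a larger second than first step. Besides Cdh2, 2 genes passed the test in the same direction. Ndfip1, which encodes an adaptor of Nedd4-family ubiquitin ligases, had a contrast of -1.32 (limma, adjusted p = 0.000146), and Rplp1, which encodes a protein of the ribosomal stalk, one of -0.98 (limma, adjusted p = 0.000951). Rplp1 fell at the second step, by 0.66, whereas Cdh2 rose. The genes that rose at both steps were Ndfip2, Pld1, Trim2, Sdha and Cdh2, and Cdh2 was the only one of these 5 whose second step was smaller by the test; Rplp1, Trim2, Enpp1 and the other labelled genes outside the naming rule were chosen after their values were seen.

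**Figure D4:**
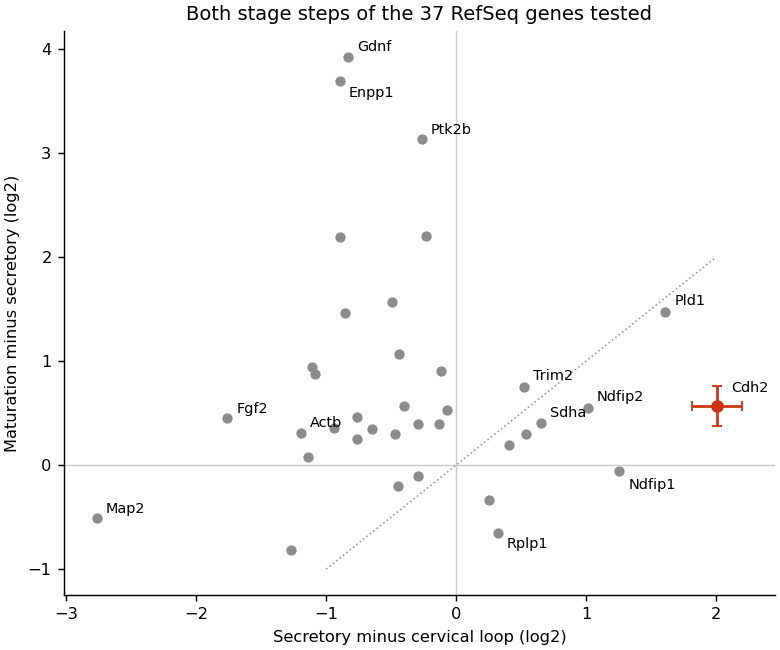
Difference at the second step (maturation minus secretory, log2) against that at the first (secretory minus cervical loop, log2) for 37 RefSeq genes. Cdh2 is in red with its SE of 0.19 on both axes and lies farthest to the right, at 2.01 and 0.57; the dotted line marks equal steps, and the Map2 and Gdnf points rest partly on spots not well above background.

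The named genes whose values most resembled those of Cdh2 were found by Pearson's r over the 15 arrays. Given as a description, r was 0.947 for Ndfip2, 0.915 for Pld1, 0.912 for Ndfip1, 0.889 for Sdha and 0.855 for Nat1. All points share arrays, scaling and the stage pattern. Over all 28862 other features r had quartiles of -0.659 and 0.289 around a median of -0.235, and 272 of them, or 0.942%, were over 0.9. Spearman's rho was 0.918 for Ndfip2 and for Pld1 but 0.607 for Ndfip1.

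Ndfip2, which encodes another adaptor of Nedd4-family ligases, had the profile nearest to Cdh2. Its normalized log2 signal lay between 1.78 and 2.30 in cervical loop, between 2.67 and 3.38 in secretory and between 3.48 and 3.75 in maturation arrays, without overlap. It rose by 1.01 at the first step (limma, adjusted p = 2.14e-05) and by 0.55 at the second (limma, adjusted p = 0.00355; 0.34 with quantile normalization). The second value was close to the 0.57 of Cdh2, and the first was smaller than its 2.01; the difference between the genes was not tested. Secretory replicate 1 was the lowest secretory array for both genes, as it also was for Pld1, Ndfip1, Sdha and Nat1.

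Ndfip1 rose by 1.26 at the first step (limma, adjusted p = 1.04e-06) and differed by -0.06 at the second (limma, adjusted p = 0.706; 0.16 with median scaling and 0.01 with normexp correction). Sdha, which encodes a subunit of succinate dehydrogenase in the mitochondrial respiratory chain, rose by 0.66 (limma, adjusted p = 0.00379) and by 0.41 (limma, adjusted p = 0.0490). The second of these calls was lost with quantile normalization and with the percentile over probes detected on all arrays. Nat1, which encodes an arylamine N-acetyltransferase, rose by 0.54 at the first step (limma, adjusted p = 0.00385), and its second difference of 0.30 did not pass the threshold (limma, adjusted p = 0.0776), although it did with median scaling and normexp correction. Within stages the likeness was weaker. The r of deviations from the stage means was 0.37 for Ndfip2, 0.15 for Pld1, 0.14 for Ndfip1, 0.45 for Sdha and 0.06 for Nat1. Over all other features this r had quartiles of -0.196 and 0.321, so Pld1, Ndfip1 and Nat1 lay between them and Ndfip2 and Sdha above. The high r over all arrays thus came mainly from the stage means.

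The named genes least like Cdh2 were Dlg4 with r = -0.894, Map2 with -0.868 and Actb with -0.834. For Map2 the value rests on secretory and maturation arrays where it was not well above background. Among probes of ultraconserved elements, which are stretches of DNA identical in human, mouse and rat, the most similar were the minus-strand and the plus-strand probe of element uc.173, with r of 0.953 and 0.920. The minus-strand probe differed by 1.47 and 0.58 at the first and second step, and the plus-strand probe by 1.03 and 0.70. The most similar probes without a gene name were ASRNV20017577 and ASRNV20030160, both with r = 0.967. Their differences were smaller than those of Cdh2, 0.51 and 0.79 at the first step and 0.16 and 0.12 at the second.

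**Figure D5:**
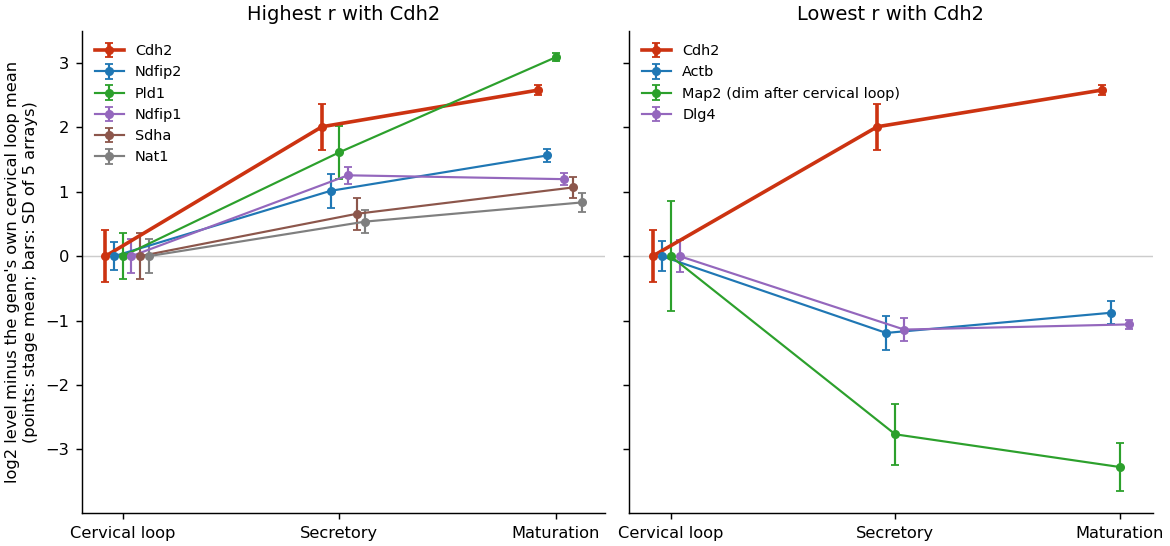
Stage means of the normalized log2 signal, each minus the gene's own cervical loop mean, with bars of 1 SD over 5 arrays, for Cdh2 and the RefSeq genes with the highest r (left) and lowest r (right) to it. Cdh2 climbs by 2.01 and then 0.57, Ndfip1 levels off after the first step, and Dlg4, Map2 and Actb fall at the first step; Map2 was not well above background on secretory and maturation arrays.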

How the data were processed

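Total RNA was labelled with Cy3 and hybridized to one-colour Agilent arrays of an rn4 design, per the file headers. Spots were quantified, per the submitters' processing notes, in Agilent Feature Extraction 11.0.1.1. The deposited scanner files hold spot intensities on a linear scale, already background-subtracted, per the file headers. The Cdh2 transcript was named through a RefSeq gene table of assembly GRCr8, used for names only; 39 of 62 accessions matched. Where the probe lies in the transcript was not analysed here. The authors' table of normalized values holds no RefSeq probe and was not used here.

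Control spots and spots marked uneven or outlying were left out (107 to 276 per array), spots of a probe were averaged, and the log2 signal was scaled by subtracting the 75th percentile of each array. The 28863 features tested were well above background (at least 50% of a probe's spots) on all 5 arrays of at least 1 stage. One limma fit (version 3.58.1, R 4.3.3) over 15 arrays compared the stages, with Benjamini-Hochberg adjustment over all features and a threshold of 0.05. The fit was tested on simulated data. Tables were handled with Python 3.11.15, pandas 2.3.3, numpy 2.4.6 and scipy 1.17.1, and plots with matplotlib 3.10.9. Named genes are Cdh2, the listed junction and partner genes tested, the 5 RefSeq genes with the highest and the 3 with the lowest r to Cdh2, and 2 ultraconserved and 2 unnamed probes with the highest r. The gene and the lists were chosen with earlier results of these data known. Alternatives covered scaling, background correction (normexp with offset 50), spot averaging, filters, blocks, stage labels and leaving out each array. As a check of pairing, deviations from the stage means were correlated between same-numbered arrays, with a minimum of 0.1. Between maturation and secretory arrays all 5 pairs passed it (0.107 to 0.289, against -0.180 to 0.0447 for the 20 other pairs), so the numbers were taken to pair these stages, from the data and not from the labels. Of the pairs with the cervical loop, 2 of 5 passed for maturation and 1 of 5 for secretory.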

Additional observations from a re-analysis of the deposited data

Results flagged for a closer look

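Among 36 groups of a named gene and a stage, 1 held a sample far from the others, and chance gives about 1 in 20 such groups. Ptk2b stood at 0.33 in maturation replicate 2, above the next sample at -0.27; the gap was 0.872 of the stage's range, over the critical value of 0.71. Cdh2 on that array was 3.67, the lowest of the maturation samples, and Cdh2 had no such sample at any stage.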

How the results depend on the processing

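The Cdh2 increases from cervical loop to secretory stage and to maturation, and the smaller second step, kept their direction and call under all alternatives run, each of which scaled the arrays. The first ranged from 1.90 to 2.36 (1.92 to 2.18 when 1 array was left out), the increase to maturation from 2.22 to 3.02 (2.51 to 2.75), and the contrast of steps from -2.51 to -1.28 (-1.64 to -1.26). The increase from secretory to maturation, 0.57, lost its call with quantile normalization (0.35), with scan as a block (0.72), within the scan that holds both stages (0.72) and without secretory replicate 1 or 2. It turned to -0.14 with stages from the titles, under which 0 features passed between these stages in either direction. Leaving out 1 array gave 0.47 to 0.66, with adjusted p from 0.00490 to 0.0551 (limma). Apart from the titles, where arrays of both tissue labels are mixed, the cause of these losses was not tested.

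The replicate numbers paired maturation with secretory arrays, where 10 of 10 arrays correlated best with their own number, and did not pair either stage with the cervical loop. With replicate number as a block the Cdh2 differences were 2.01, 0.57 and 2.58, the contrast of steps was -1.44, and no Cdh2 call changed. These further fits were chosen after seeing the data. The block in a fit of secretory and maturation arrays alone gave 0.57 (limma, adjusted p = 0.0123), with 8335 features higher and 10894 lower. With scan as a further block it was 0.87, short of the threshold, and 706 and 723 features passed. Position on the slide as a block gave 1.94 and 0.64. Scan as a random block, planned earlier, gave 2.01 and 2.59 for the cervical loop comparisons, and with the replicate block added 2.01 and 2.58.

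Of the listed junction and partner genes, 3 instead of 5 fell at the first step with normexp correction, and at the second 1 fell with normexp and 1 without background correction, instead of 0. Of the RefSeq genes, 1 instead of 2 fell at the second step and 5 instead of 10 over both steps with median scaling. Counts over all features moved by more than 1.5 times in these cases. At the first step 3679 instead of 6172 rose with stages from the titles and 5969 instead of 10597 fell with normexp correction. At the second, 3749 rose and 4337 fell with scan as a block and 1767 and 1626 within 1 scan, instead of 7245 and 9915. Over both steps 10801 rose and 6689 fell with median scaling and 3759 and 7816 with stages from the titles, instead of 5936 and 12319.

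Cdh2 rests on 1 probe, and no other Cdh2 measurement was set beside it. Its signal was far above background at all stages, so background correction moved it little. The values of Map2, Gdnf, Fgf2, Dlg4 and Ptk2b moved with the background correction, which limits how far the sizes of their differences can be read.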
